A study of Mus musculus with 3 samples.

Results

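The genes described here encode the non-collagen matrix of mouse bone marrow stroma: elastic fibre proteins, matricellular proteins, proteoglycans and the laminins, nidogens and proteoglycans of basement membranes. Of 45 genes listed for these groups, 42 were measured, out of 19938 genes on the arrays. A gene counted as measured if a probe set was annotated to it alone, and the brightest such probe set by its mean log2 value stood for the gene. Fbn1 and Efemp2 had no such probe set in the annotation used, and the probe set of Loxl2 also carried a second gene symbol, so these 3 are not analysed here. The measured genes are 14 of the elastic fibre group, 10 matricellular genes, 6 proteoglycan genes and 12 of the basement membrane group.

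Elastic fibres are built from an elastin core on a scaffold of fibrillin microfibrils, with fibulins that guide the assembly and lysyl oxidases that crosslink it. Basement membranes are sheets in which laminin trimers of an alpha, a beta and a gamma chain form a network that nidogens and perlecan tie to type IV collagen. Matricellular proteins such as tenascins and thrombospondins are secreted into the matrix and act on cells more than on its mechanics, and small leucine-rich proteoglycans bind collagen fibrils and growth factors. In bone marrow, stromal cells lay down much of the matrix that surrounds sinusoids and blood-forming cells.

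The study set CXCL12-abundant reticular (CAR) cells, perivascular stromal cells with a high level of the chemokine CXCL12, beside PDGFRa+ Sca+ CD45- lineage- cells, called PaS here, at baseline. Both were sorted by flow cytometry from the marrow of tibia, femur and pelvis. The CAR group is 2 arrays from 2 CXCL12-GFP knock-in mice. The PaS group is 1 array of cells combined from 3 Prx1-Cre Rosa26Ai9/+ Cxcl12gfp/+ mice, which carry a Cre driver of limb mesenchyme, a Cre-dependent reporter and the Cxcl12-GFP allele. All mice thus carried GFP at the Cxcl12 locus, and the ages were not given in the sources used here. Cell type, genotype and pooling of mice cannot be told apart, and the PaS side has no replicate, so no value can be given without that array. Values are log2 of the deposited intensity, and every difference is CAR minus PaS. A gene was called where limma's adjusted p over all genes was under 0.05. SDs were taken between the CAR arrays (n = 2).

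The sort genes were checked first. Cxcl12 was at 10.94 and 11.11 in CAR cells, against 7.76 for the array labelled PaS. Pdgfra, the gene of the PaS sort, was at 7.52 and 7.97 in CAR cells, against 4.33 on the PaS-labelled array. Ptprc, which encodes the excluded CD45, was at 5.11 and 5.01 in CAR cells, against 8.27 on the PaS-labelled array. The values of Pdgfra and Ptprc go against the PaS label. Prrx1, whose promoter drives the Cre of the PaS mice, was at 7.76 and 8.06 in CAR cells, against 5.24 on the PaS-labelled array (adjusted p = 0.0143). The Sca-1 gene Ly6a is not analysed here. Of 8 measured markers of such progenitors and fibroblasts, 5 were called lower in CAR cells and Pdgfra higher. Their summed intensity was 250 and 319 in CAR cells, resting mostly on Pdgfra, and 836 on the PaS-labelled array. The other 7 markers lay below the PaS value on both CAR arrays, as did 46.8% of all genes. All 7 CAR markers, among them the sort gene Cxcl12, were called higher in CAR cells, with summed intensities of 5352 and 6229 against 363. The sum on the PaS-labelled array rested mostly on Cxcl12, so this list is not separate from the sort genes. Marker lists of other cell types differed in both directions. The summed intensity of 10 general blood cell genes was 615 and 864 in CAR cells and 3345 on the PaS-labelled array, that of 10 endothelial genes 115 and 107 against 429, and that of 10 cartilage and joint genes 165 and 197 against 1798. Of these lists, 9, 4 and 3 genes were called lower in CAR cells and 0 higher, and 0 of their values were at an intensity of 0. Neutrophil genes summed to 2941.5 and 2642.4 in CAR cells and to 15397 on the PaS-labelled array, with 7 of 10 called lower. Macrophage genes summed to 617 and 586 against 3115, with 5 of 10 called lower. Megakaryocyte or platelet genes summed to 264 and 99.0 against 430, with 2 of 7 called lower. None of these genes was called higher. Over all 19938 genes, 6.42% were called lower in CAR cells and 8.56% higher. The cartilage and joint sum rested mostly on Prg4, lubricin of the joint surface, at 4.17 and 5.61 in CAR cells and at 10.46 on the PaS-labelled array, and 7 of the 10 genes, Col2a1 and Sox9 among them, were not called. Osteoblast genes ran the other way. Of 7 listed, 4 were measured, and 3 of these (Ibsp, Sp7 and Alpl) were called higher in CAR cells. The sum was 2202 and 3257 in CAR cells against 163. It rested mostly on Ibsp, at 11.02 and 11.60 in CAR cells and at 6.80 on the PaS-labelled array. Smooth muscle or pericyte genes, at 122 and 128 in CAR cells against 116, and Schwann genes, at 72.1 and 94.6 against 71.8, had 0 calls. In sorted bulk samples such as these, fewer cells of a type and less RNA per cell cannot be told apart, and the part of other cell types in the differences below was not tested.

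**Figure D1:**
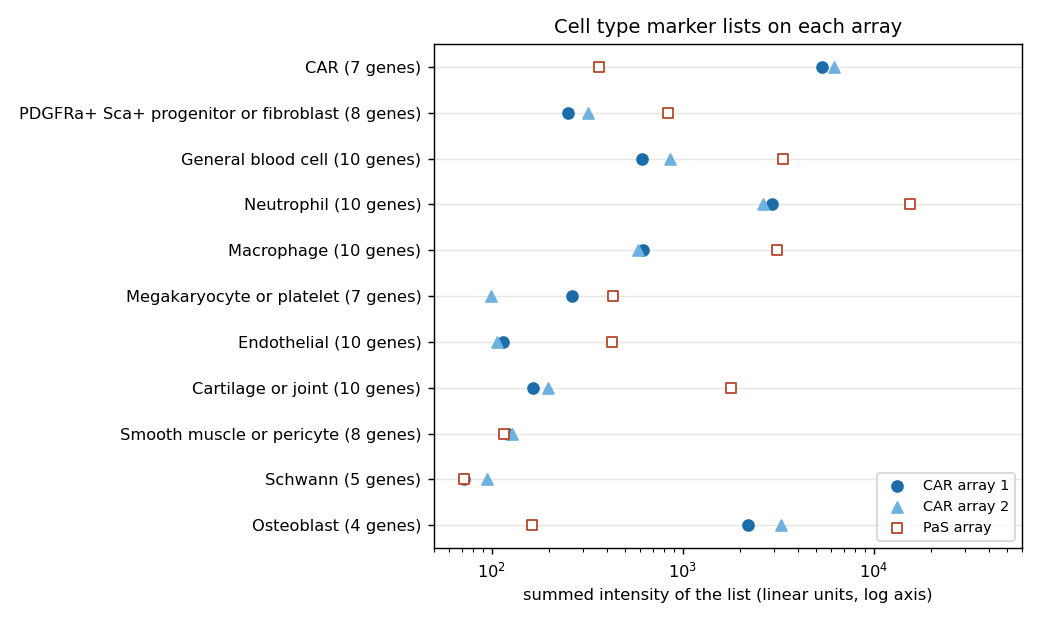
Summed intensity (linear units, log axis) of each cell type marker list with a point for each of the 2 CAR arrays and the PaS array. The blood cell, endothelial and cartilage lists lie higher on the PaS array, such as 165 and 197 on the CAR arrays against 1798 on the PaS array for cartilage and joint genes, and the CAR and osteoblast lists lie higher on both CAR arrays.

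Over all 42 matrix genes, 13 were called higher in CAR cells and 4 lower, and 25 were not called. Over all 19938 genes, 8.56% were called higher and 6.42% lower. Both CAR arrays lay above the PaS array for 25 of the 42 genes, against 37.4% of all genes, and below it for 12, against 46.8%. By size alone, 15 were at least 2-fold higher on both CAR arrays, against 10.9% of all genes, and 5 at least 2-fold lower, against 8.92%. The median difference was 0.65 log2 units over the 42 genes and -0.10 over all genes. The groups were unlike each other. Basement membrane genes had a median of 1.20, with 5 of 12 called higher and 0 lower, and elastic fibre genes 0.57, with 5 of 14 called higher and 0 lower. Proteoglycan genes had a median of -0.31, with 2 of 6 called higher and 2 lower, and matricellular genes -0.43, with 1 of 10 called higher and 2 lower. Quantile normalization moved the proteoglycan and matricellular medians to -0.90 and -0.87. These are counts over genes that were chosen with earlier results of these arrays known, and no test was made between the groups.

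**Figure D2:**
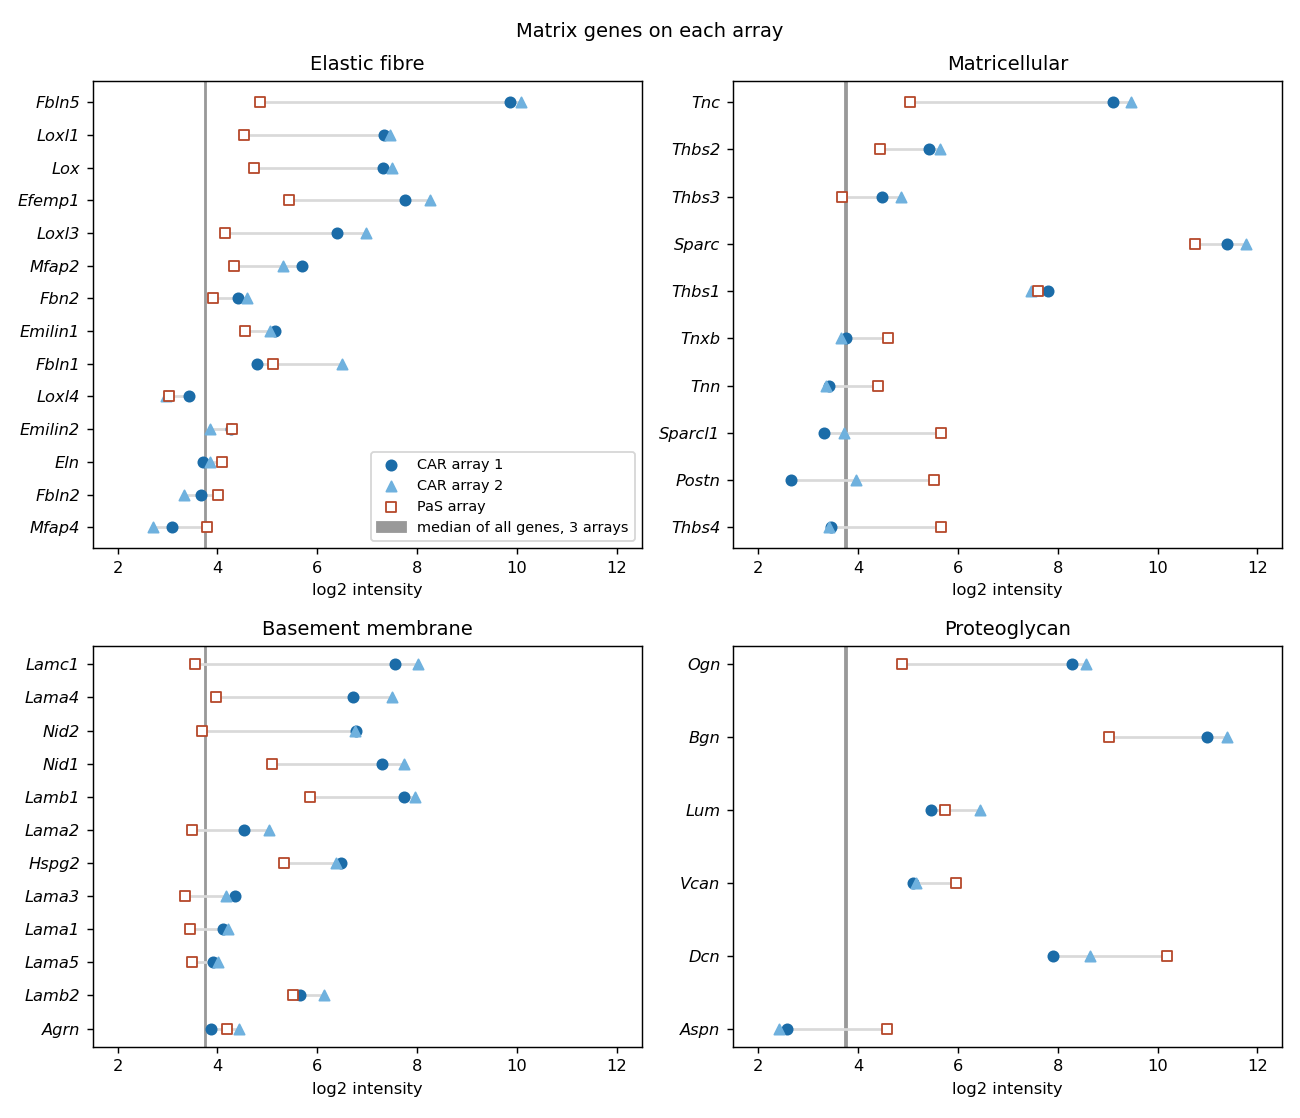
Log2 intensity of the 42 matrix genes by group, with circles for CAR array 1, triangles for CAR array 2, squares for the PaS array and the medians of all genes as a grey band. Fbln5, Tnc and Lamc1 lie far higher on both CAR arrays, whereas Dcn, Aspn, Thbs4 and Sparcl1 lie higher on the PaS array.

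Within the elastic fibre group, the 5 genes called higher in CAR cells encode fibulins and lysyl oxidases. Elastin and the measured microfibril genes of the group were not called. Fbln5 encodes fibulin-5, which brings elastin together with lysyl oxidase-like enzymes. It was at 9.85 and 10.09 in CAR cells and at 4.85 on the PaS-labelled array. Both CAR arrays were high and the PaS array was low, with no overlap. The difference was 5.12 ± 0.29 (SE), or 34.7-fold (adjusted p = 0.0081), which was the largest difference among the 42 genes. Efemp1, which encodes fibulin-3, was at 7.75 and 8.26 in CAR cells and at 5.43 on the PaS-labelled array. Its CAR values also lay wholly above the PaS value, 5.99-fold on average (adjusted p = 0.0189). The other measured fibulins did not pass: Fbln1 was at 4.79 and 6.48 in CAR cells and at 5.12 on the PaS-labelled array, so that the PaS value lay between the CAR arrays. Fbln2 was at 3.67 and 3.33 in CAR cells and at 4.004 on the PaS-labelled array (adjusted p = 0.299).

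The lysyl oxidases convert lysines of elastin and collagens into crosslinks. Of the 4 measured enzymes, 3 were called higher in CAR cells, against 8.56% of all genes. Loxl1, the enzyme tied most closely to elastin, was at 7.33 and 7.45 in CAR cells and at 4.53 on the PaS-labelled array. The difference of 2.86 ± 0.28 (SE), or 7.28-fold, was far larger than the gap between the CAR arrays (adjusted p = 0.0123). Lox, which acts on collagen as well as elastin, was at 7.31 and 7.50 in CAR cells and at 4.72 on the PaS-labelled array, a 6.41-fold difference (adjusted p = 0.0135). Loxl3 was at 6.40 and 6.97 in CAR cells and at 4.15 on the PaS-labelled array, a 5.80-fold difference (adjusted p = 0.0203). For all 3 enzymes the CAR arrays stood above the PaS array without overlap. Loxl4 was at 3.43 and 2.97 in CAR cells and at 3.03 on the PaS-labelled array, below the median of all genes on each array. Its PaS value lay between the CAR values, and it was not called.

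None of the measured structural genes of this group was called, and Fbn1 was not measured. Outside the group, the microfibril gene Mfap5 was called lower and Ltbp1 and Ltbp2 higher, as given below. Eln, elastin itself, was at 3.71 and 3.85 in CAR cells and at 4.09 on the PaS-labelled array, with a 95% interval of the difference from -1.04 to 0.40 (adjusted p = 0.470). All 3 values lay near the array medians over all genes, which were 3.74 and 3.75 for CAR and 3.77 for PaS, so that a low level cannot be told from background. Fbn2, a fibrillin of developing microfibrils, was at 4.41 and 4.58 in CAR cells and at 3.90 on the PaS-labelled array. Mfap2, a microfibril glycoprotein, was at 5.69 and 5.31 in CAR cells and at 4.34 on the PaS-labelled array. Both CAR values of these genes lay above the PaS value, but neither gene was called (adjusted p = 0.204 for Fbn2 and 0.0650 for Mfap2). For Mfap2 the call depended on the setting, with adjusted p between 0.0374 and 0.102 over the alternatives. Mfap4, another microfibril-associated protein, was at 3.10 and 2.72 in CAR cells and at 3.78 on the PaS-labelled array. Emilin1 and Emilin2, glycoproteins at the interface of elastin and microfibrils, had differences of 0.54 and -0.24 that were not called.

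In the basement membrane group, both CAR arrays lay above the PaS array for 11 of 12 genes, against 37.4% of all genes, with Lamb2 turning after quantile normalization. Among the 5 laminin alpha chains, 1 was called higher, beside 8.56% of all genes. Lama4, the alpha4 chain known from vessel walls and marrow, was at 6.71 and 7.49 in CAR cells and at 3.98 on the PaS-labelled array. The CAR arrays were unequal but both far above the PaS value, with a difference of 3.12 ± 0.41 (SE), or 8.69-fold (adjusted p = 0.0188). The PaS value of Lama4 was close to that array's median over all genes, 3.77, so the size of the fold is uncertain. Lama2, the alpha chain of muscle and nerve basement membranes, was at 4.54 and 5.02 in CAR cells and at 3.49 on the PaS-labelled array. It was 2.44-fold higher without passing the threshold (adjusted p = 0.0598), and adjusted p ran from 0.0133 to 0.0604 over the alternatives. Lama1, Lama3 and Lama5, chains best known from embryonic, epithelial and vessel or epithelial basement membranes, had differences of 0.71, 0.91 and 0.47. Their PaS values lay below the median of all genes on that array, and none of the 3 was called, although quantile normalization gave adjusted p = 0.0259 for Lama3.

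Of the beta and gamma chains, Lamb1 and Lamc1 were called higher and Lamb2 was not called. Lamc1, the gamma1 chain shared by most laminins, was at 7.56 and 8.02 in CAR cells and at 3.55 on the PaS-labelled array. The CAR values lay far above the PaS value, which was under the median of all genes, so that the size of the fold is uncertain. The difference was 4.24 ± 0.33 (SE), or 18.9-fold (adjusted p = 0.0103). Lamb1, the beta1 chain, was at 7.74 and 7.95 in CAR cells and at 5.84 on the PaS-labelled array, a 4.002-fold difference (adjusted p = 0.0221). Lamb2, the beta2 chain of muscle and kidney basement membranes, was at 5.66 and 6.14 in CAR cells and at 5.52 on the PaS-labelled array. Its difference of 0.38 was not called and became -0.22 after quantile normalization. The chains called higher were therefore 1 alpha, 1 beta and 1 gamma chain, which does not show that they were joined in a trimer.

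Both nidogens, which connect laminin with type IV collagen, were called higher in CAR cells. Nid2 was at 6.77 and 6.76 in CAR cells and at 3.70 on the PaS-labelled array. The CAR arrays were almost equal and lay 3.06 ± 0.28 (SE), or 8.35-fold, above the PaS array (adjusted p = 0.0114). Its PaS value, like that of Lama2, was under the median of all genes, so the size of the fold is as uncertain as for Lamc1. Nid1 was at 7.29 and 7.74 in CAR cells and at 5.08 on the PaS-labelled array, a 5.39-fold difference without overlap (adjusted p = 0.0195). Of the heparan sulfate proteoglycans, Hspg2, which encodes perlecan, was at 6.48 and 6.38 in CAR cells and at 5.33 on the PaS-labelled array. It was 2.15-fold higher and just missed the threshold (adjusted p = 0.0583, and 0.0363 to 0.205 over the alternatives). Agrn, which encodes agrin, was at 3.87 and 4.44 in CAR cells and at 4.19 on the PaS-labelled array, with the PaS value between the CAR values. Its 95% interval ran from -0.93 to 0.86. Of the 10 endothelial markers, 4 were called lower in CAR cells and 0 higher, against 6.42% and 8.56% of all genes. The part of endothelial cells in these values was not tested.

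**Figure D3:**
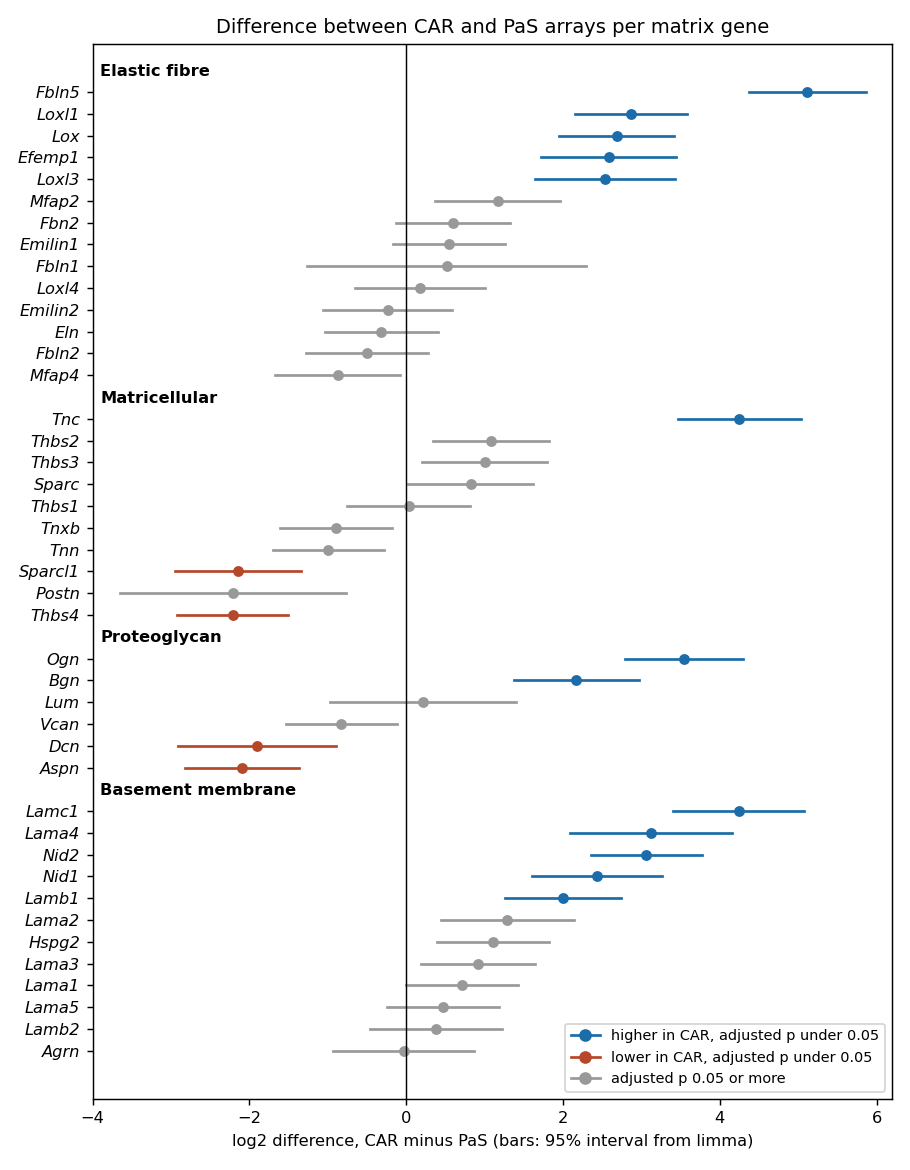
Log2 difference, CAR minus PaS, of each matrix gene with its 95% interval from limma, ordered within the 4 groups, with called genes in colour. Basement membrane and elastic fibre genes have called differences to the CAR side alone, such as 5.12 for Fbln5 and 4.24 for Lamc1, while the matricellular and proteoglycan groups have calls on both sides.

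The matricellular genes were divided. Tnc encodes tenascin C, a large protein of remodelling matrix that is also known from the marrow niche. It was at 9.11 and 9.46 in CAR cells and at 5.04 on the PaS-labelled array. Both CAR arrays were high, and the difference of 4.25 ± 0.31 (SE), or 19.0-fold, was called (adjusted p = 0.00914). The other measured tenascins lay on the opposite side without being called. Tnxb, tenascin X of skin and tendon, was at 3.75 and 3.65 in CAR cells and at 4.59 on the PaS-labelled array, and Tnn, tenascin N of bone-forming tissue, was at 3.42 and 3.37 in CAR cells and at 4.39 on the PaS-labelled array. For both genes the CAR arrays lay below the PaS array without overlap, with adjusted p = 0.0904 for Tnxb and 0.0709 for Tnn, and both were called after quantile normalization (0.0162 and 0.0149).

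Among the 4 thrombospondins, Thbs4 alone was called, and it was lower in CAR cells, as were 6.42% of all genes. Thbs4, a thrombospondin of tendon, muscle and heart, was at 3.47 and 3.43 in CAR cells and at 5.66 on the PaS-labelled array. Both CAR arrays lay below the PaS array, by 4.64-fold on average (difference -2.21 ± 0.28, SE; adjusted p = 0.0178). Thbs1, an angiogenesis inhibitor that platelets and macrophages also hold, was at 7.81 and 7.47 in CAR cells and at 7.61 on the PaS-labelled array. The PaS value fell between the CAR values, with a 95% interval of the difference from -0.75 to 0.81. Thbs2, a related angiogenesis inhibitor of fibroblasts, was at 5.41 and 5.64 in CAR cells and at 4.45 on the PaS-labelled array (adjusted p = 0.0655). Thbs3, a thrombospondin of the skeleton, was at 4.48 and 4.87 in CAR cells and at 3.68 on the PaS-labelled array (adjusted p = 0.0904). In both, the CAR arrays lay above the PaS array by about 1 log2 unit, and neither was called, although Thbs2 passed after median centring (adjusted p = 0.0411) and Thbs3 after quantile normalization (0.0347).

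Sparc and its relative differed in direction. Sparc encodes osteonectin, a collagen-binding protein abundant in bone and fibroblasts, and was bright on every array, at 11.39 and 11.77 in CAR cells and at 10.76 on the PaS-labelled array. It was 1.77-fold higher in CAR cells, which was not called (adjusted p = 0.134). Sparcl1, a Sparc-like protein found in vessels among other tissues, was at 3.33 and 3.72 in CAR cells and at 5.67 on the PaS-labelled array. Both CAR arrays lay below the PaS array, by 4.43-fold (difference -2.15 ± 0.32, SE; adjusted p = 0.0226). Postn, periostin of periosteum and remodelling connective tissue, was at 2.66 and 3.96 in CAR cells and at 5.52 on the PaS-labelled array. Its difference of -2.21 was as large as that of Thbs4, but the CAR arrays were far apart and it did not pass (adjusted p = 0.0590). It was called under 4 of 6 alternatives with a test, with adjusted p from 0.00720 to 0.0603 over the 6. In CAR cells Thbs4 and Sparcl1 were under each array's median. The 5th percentile of all genes was 1.87 and 1.69 for CAR and 2.40 for PaS, so the sizes of these folds are uncertain, and the part of this gap in them was not tested. Over all genes, 6.42% were called lower in CAR cells and 8.56% higher. Of the 10 endothelial markers 4, and of the 10 cartilage and joint markers 3, were called lower in CAR cells and 0 higher. The part of such cells in the values of these genes was not tested.

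The proteoglycans split evenly. Ogn encodes osteoglycin, also called mimecan, a small leucine-rich proteoglycan of bone and connective tissue. It was at 8.29 and 8.56 in CAR cells and at 4.89 on the PaS-labelled array. The CAR arrays stood well above the PaS array, by 3.54 ± 0.30 (SE), or 11.6-fold (adjusted p = 0.0107). Bgn, biglycan of bone matrix, was at 11.00 and 11.38 in CAR cells and at 9.02 on the PaS-labelled array. It was bright on every array and 4.50-fold higher in CAR cells, without overlap (adjusted p = 0.0221). Dcn, decorin, which coats collagen fibrils and binds TGF-beta, was at 7.91 and 8.66 in CAR cells and at 10.18 on the PaS-labelled array. Both CAR arrays lay below the PaS array, by 3.74-fold (difference -1.90 ± 0.40, SE; adjusted p = 0.0401). On each array Dcn lay above the 95th percentile of all genes, which was 6.69 and 6.93 for CAR and 6.16 for PaS. Its difference was -2.21 after quantile normalization.

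Aspn, asporin, a proteoglycan close to decorin that is known from cartilage and periodontal ligament, was at 2.59 and 2.41 in CAR cells and at 4.59 on the PaS-labelled array. Both CAR values were low and the difference was -2.09 ± 0.29 (SE), or 4.26-fold lower in CAR cells (adjusted p = 0.0200), with the same doubt on the size of a dim fold as for Thbs4. Lum, lumican of cornea and fibrous tissue, was at 5.46 and 6.45 in CAR cells and at 5.74 on the PaS-labelled array. The PaS value lay between the CAR arrays, and the 95% interval ran from -0.97 to 1.40. Vcan, versican, a large hyaluronan-binding proteoglycan of loose matrix and of myeloid cells, was at 5.10 and 5.15 in CAR cells and at 5.96 on the PaS-labelled array. The CAR values lay below the PaS value without a call (adjusted p = 0.104), and quantile normalization turned this into a call (-1.41, adjusted p = 0.00805). In the GRCm38.p6 annotation, Ogn and Aspn are close neighbours on chromosome 13, with called differences in opposite directions. Dcn and Lum are adjacent on chromosome 10, and their 95% intervals overlapped. Neighbours were not tested against each other.

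Replicate spread was modest for most of these genes. The SD between the CAR arrays had a median of 0.24 log2 units over the 42 genes and of 0.19 over all genes. It was highest for Fbln1 at 1.20, followed by Postn at 0.92, Lum at 0.70, Lama4 at 0.55 and Dcn at 0.53. CAR array 2 exceeded CAR array 1 for 28 of the 42 genes, with a median difference of 0.20, and for 9691 of all 19938 genes, with a median of -0.01. For Fbln1 and Lum the direction of the difference from the PaS-labelled array turned with the CAR array taken: without CAR array 2 it was -0.33 for Fbln1 and -0.28 for Lum.

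Upstream sequences are shown for the called genes with the largest differences that had an entry in the RefSeq promoter table of build GRCm38.p6, 3 called higher and both called lower, as the regulatory stretch next to the genes the results turn on. Each is the 250 bases before the annotated start, 5′ to 3′ on the gene's strand, with the first listed start taken where a gene had several. Fbln5 lies at chr12:101819120-101819369 on the minus strand, Tnc at chr4:64047016-64047265 on the minus strand, Ogn at chr13:49607765-49608014 on the plus strand, Thbs4 at chr13:92794819-92795068 on the minus strand and Aspn at chr13:49544193-49544442 on the plus strand. Capitals mark matches, on either strand, to the TATA box (TATAAA), the GC box (GGGCGG), AP-1 (TGANTCA), forkhead (TGTTTAC) or TEAD (GGAATG) motifs, and matches that overlap run together.
Fbln5: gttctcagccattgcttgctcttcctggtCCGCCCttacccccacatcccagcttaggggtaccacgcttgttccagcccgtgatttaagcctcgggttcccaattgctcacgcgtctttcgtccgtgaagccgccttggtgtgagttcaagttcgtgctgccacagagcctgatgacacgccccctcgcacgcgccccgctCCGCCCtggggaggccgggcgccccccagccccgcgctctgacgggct
Tnc: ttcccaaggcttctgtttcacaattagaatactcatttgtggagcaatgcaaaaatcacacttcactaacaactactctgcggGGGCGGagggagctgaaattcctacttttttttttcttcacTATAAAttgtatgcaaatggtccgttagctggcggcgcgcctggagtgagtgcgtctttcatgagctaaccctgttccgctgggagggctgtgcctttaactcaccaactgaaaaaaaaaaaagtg
Ogn: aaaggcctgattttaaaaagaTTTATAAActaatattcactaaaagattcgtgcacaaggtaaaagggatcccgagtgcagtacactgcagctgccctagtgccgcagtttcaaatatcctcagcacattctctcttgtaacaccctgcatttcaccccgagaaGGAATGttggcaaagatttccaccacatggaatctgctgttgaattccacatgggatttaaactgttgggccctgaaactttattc
Thbs4: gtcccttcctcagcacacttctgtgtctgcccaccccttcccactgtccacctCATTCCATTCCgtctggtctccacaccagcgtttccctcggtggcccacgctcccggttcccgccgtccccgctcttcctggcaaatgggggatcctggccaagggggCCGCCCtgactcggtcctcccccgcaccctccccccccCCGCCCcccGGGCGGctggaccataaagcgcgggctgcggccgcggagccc
Aspn: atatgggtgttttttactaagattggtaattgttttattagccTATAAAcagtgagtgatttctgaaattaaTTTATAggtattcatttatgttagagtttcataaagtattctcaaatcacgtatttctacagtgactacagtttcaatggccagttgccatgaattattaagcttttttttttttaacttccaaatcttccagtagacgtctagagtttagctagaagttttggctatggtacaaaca
Of the 42 genes, 27 had an entry. The GC box was found in 15 of these 27 windows and in 32.9% of the windows of all 27025 genes in the table. It was in 6 of the 7 called higher with an entry, among them Fbln5 and Tnc, and in Thbs4 of the 2 called lower. The TATA box was found in 4 of 27 windows, in Tnc, Ogn, Thbs2 and Aspn, against 13.0% of all windows. The TEAD motif was in 4 of 27 (Nid1, Ogn, Thbs4 and Tnn) against 12.6%, and the AP-1 motif in 2 of 27 (Efemp1 and Tnxb) against 6.87%. The forkhead motif was in 0 of 27, against 3.09% of all windows. These are matches of letters in a short window and say nothing of binding.

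Genes that work with these matrix proteins were read from a list of textbook members. Of 80 measured companion genes, 17 were called higher in CAR cells and 9 lower, with a median difference of 0.13, beside 8.56% of all genes called higher and 6.42% lower. Among 14 other elastic fibre genes, 2 rose and 2 fell (14.3% each, against 8.56% and 6.42% of all genes). Ltbp2 and Ltbp1, latent TGF-beta binding proteins that attach to microfibrils, were higher, Ltbp2 at 8.35 and 8.44 in CAR cells and at 4.58 on the PaS-labelled array (14.1-fold, adjusted p = 0.00914) and Ltbp1 by 4.99-fold. Mfap5, a microfibril glycoprotein related to Mfap2, fell by 1.64 log2 units, and Mmrn1, multimerin of platelets and endothelium, fell by 1.86. Both were under the array medians in CAR cells.

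Among 15 other basement membrane genes, 1 rose and 0 fell, and this 6.67% is near the 8.56% of all genes called higher. Col4a1, a chain of the type IV collagen network that nidogens bind, was at 6.02 and 6.25 in CAR cells and at 4.53 on the PaS-labelled array (3.04-fold, adjusted p = 0.0317). Its partner chain Col4a2 was at 5.75 and 5.63 in CAR cells and at 4.81 on the PaS-labelled array, which was not called (adjusted p = 0.0941). Of the 15, 5 lay under the median of all genes on every array, Lamb3 and Ntn4 among them.

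Of 15 other matricellular genes 6 rose and 2 fell (40.0% and 13.3%, against 8.56% and 6.42% of all genes). The CCN proteins Ccn5 and Ccn2, which modulate growth factor and integrin signals, had folds of 5.85 and 5.51 toward CAR cells, and Comp, a thrombospondin family member of cartilage, was 4.35-fold lower. Of 17 other proteoglycan genes 3 rose and 3 fell (17.6% each, against the same shares of all genes). Podn, podocan of the leucine-rich family, was 5.65-fold higher, while Chad, chondroadherin of cartilage, was 11.7-fold lower and Srgn, serglycin of blood cell granules, 7.19-fold lower. Comp and Chad are themselves 2 of the 3 called genes of the cartilage and joint list, so that list gives no separate measure beside them. The part of cartilage and blood cells in these values was not tested.

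The receptors that bind these ligands were part of the list. Of 19 measured matrix receptors, 5 rose and 2 fell (26.3% and 10.5%, against 8.56% and 6.42% of all genes). Itga1, a chain of a collagen and laminin receptor, was at 7.61 and 7.35 in CAR cells and at 4.22 on the PaS-labelled array (9.57-fold, adjusted p = 0.0114), and Itgav, the chain of integrins that bind fibulin-5, tenascin C and other proteins with an RGD motif, was 6.67-fold higher. Itgb1, the beta chain shared by the laminin and collagen receptors, was at 7.25 and 7.33 in CAR cells and at 5.50 on the PaS-labelled array (3.47-fold, adjusted p = 0.0245). Itga6, a laminin receptor chain also found on blood and endothelial cells, was at 3.20 and 2.05 in CAR cells and at 4.83 on the PaS-labelled array, with unequal CAR arrays (adjusted p = 0.0496, and up to 0.0511 over the alternatives, where the call was lost). Cd44, a hyaluronan receptor abundant on leukocytes, was 4.83-fold lower in CAR cells. Of the 10 general blood cell genes 9 were also called lower, and the part of blood cells in the Cd44 difference was not tested.

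**Figure D4:**
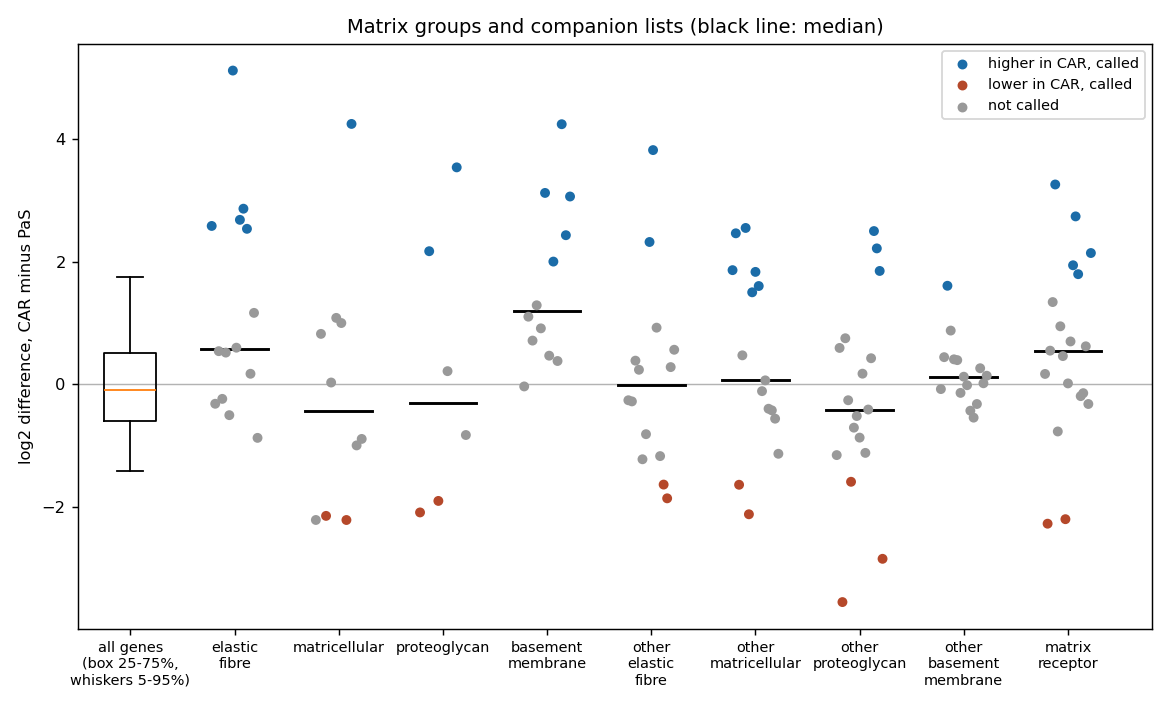
Log2 difference, CAR minus PaS, of each gene in the 4 matrix groups and the 5 companion lists, with the median of each list as a black line and the spread of all genes as a box. The basement membrane group has the highest median, 1.20, and the other proteoglycan list one of the lowest, -0.41, against -0.10 for all genes.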

How the data were processed

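Total RNA of sorted marrow stromal cells was amplified with a NuGEN picogram kit and hybridised to single-colour Affymetrix arrays, per the labels' protocols. The values deposited by the authors are intensity values on a linear scale, made with Affymetrix Expression Console and RMA, per the submitters' processing notes; no source used here gives their versions or a build. The deposited arrays do not share one distribution: the interquartile range of log2 values over genes was 1.96 and 2.28 for the CAR arrays and 1.35 for the PaS array, so quantile normalization was an alternative that changes them. Log2 of the intensity was taken without a pseudocount. No detection calls were used, and the number of arrays limits the precision.

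Of 35556 probe sets, 21789 had 1 symbol in GEO's platform annotation, 1621 had several and 12146 were unnamed here. Identifiers of 21698 matched the RefSeq gene table, from which symbols were taken, which left 19938 genes. CAR and PaS arrays were compared in limma 3.58.1 under R 4.3.3 (functions lmFit and eBayes, two-sided, Benjamini-Hochberg adjustment over all genes, threshold 0.05). The fit has 1 residual degree of freedom and 4.20 prior degrees of freedom, so the error rests on the CAR arrays and is applied to the PaS array too. The labels number the CAR arrays as replicates of 2 mice. Alternatives were median centring, quantile normalization of the log2 values, a filter on dim genes (both group means below the median), averaging of probe sets, a trended or robust prior, and leaving out each CAR array. All measured genes of the matrix list are named, and of each companion list the 3 largest called differences; Mfap5, Itgb1, Itga6, Col4a2, Lamb3, Ntn4, the marker genes Prg4, Col2a1, Sox9, Ibsp, Sp7 and Alpl, and the cluster neighbours in the closing section were named after their values were seen. The genes and lists were chosen with earlier results of these data known. A motif of EBF factors was also searched and is not reported here.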

Additional observations from a re-analysis of the deposited data

How the results depend on the processing

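All 17 called matrix genes kept their direction under all 8 alternatives and stayed past the threshold under the 6 that allow a test. After quantile normalization 2636 of all genes were called higher in CAR cells and 2831 lower, against 1706 and 1281, and 8 matrix genes were called lower, against 4. The companion genes called lower were 9, against 14 after centring and 16 after quantile normalization. Quantile normalization moved the matricellular median from -0.43 to -0.87 and the proteoglycan median from -0.31 to -0.90, and the filter on dim genes gave an elastic fibre median of 0.88. Leaving out a CAR array gave elastic fibre medians from 0.55 to 0.83, and 2319 to 2809 genes at least 2-fold lower, against 1778 that were so on both arrays, since a single array is a weaker demand. Of uncalled genes, the sign turned after quantile normalization for Fbln1 (-0.039), Thbs1 (-0.58), Lum (-0.39) and Lamb2 (-0.22), and with the mean of all probe sets for Loxl4 (-0.10). With either CAR array left out, the difference ran from -0.33 to 1.36 for Fbln1, -0.055 to 0.40 for Loxl4, -0.14 to 0.20 for Thbs1, -0.28 to 0.71 for Lum and -0.32 to 0.25 for Agrn; these have no test. The cause of the turns was not tested. No paired analysis was possible because the CAR and PaS arrays came from mice of different genotypes. Dim genes limit the sizes of folds, and nothing can be said without the single PaS array.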

Other observations

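Leucine-rich proteoglycan genes lie in clusters in the GRCm38.p6 annotation, and their estimated differences varied within a cluster. Members of a cluster were not tested against each other. On chromosome 13 the order is Ecm2, Aspn, Omd and Ogn, with differences, CAR minus PaS, of 0.75, -2.09, -0.41 and 3.54 log2 units, of which Aspn and Ogn were called. On chromosome 10 the order is Dcn, Lum, Kera and Epyc, with -1.90, 0.21, -0.87 and -0.26, of which Dcn was called. On chromosome 1 the order is Optc, Prelp and Fmod, with 0.42, 1.85 and -1.59, of which Prelp and Fmod were called. Kera and Epyc were dim on all arrays. The integrin genes Itga2 and Itga1, neighbours on chromosome 13, had differences of -0.77 and 3.26, of which Itga1 was called. Itga2 lay under the median of all genes on every array.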
